A study of Mus musculus with 6 samples.

Results

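The genes described here encode the proteins of the mitochondrial ribosome and the machinery that imports proteins into mitochondria. They were chosen by symbol alone. Every gene whose single platform symbol starts with Mrpl, Mrps, Timm or Tomm and a digit was taken, which gave 66 of the 8841 named genes on the array. There were 31 large-subunit genes (Mrpl), 18 small-subunit genes (Mrps), 11 translocase genes of the inner membrane and intermembrane space (Timm, here TIM) and 6 of the outer membrane (Tomm, here TOM). Their RNA was measured on microarrays in 2T3, a line of mouse pre-osteoblasts, cultured in Opticells, which are closed gas-permeable cassettes. The static group held 3 samples of cells left at rest in these cassettes. The simulated microgravity group held 3 samples of cells turned on a Random Positioning Machine, which averages the direction of gravity over time. No genetic change or drug is named for either group. How long the exposure lasted was not stated, nor whether the 3 samples per group were separate cultures. Each p-value is therefore set against the spread of these samples alone, and that spread may be technical.

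Mitochondria keep a small genome that encodes a few core subunits of the respiratory chain, and they translate it on their own ribosomes. All proteins of those ribosomes are encoded in the nucleus, made in the cytosol and imported. The outer membrane translocase (TOM) admits nearly all precursors. Small TIM chaperones then escort hydrophobic precursors across the intermembrane space, the TIM22 complex inserts carrier proteins into the inner membrane, and the TIM23 complex passes precursors with a presequence into the matrix with the help of a motor. Osteoblasts make large amounts of matrix protein, and their mitochondrial content is known to change as they differentiate.

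Intensities are given relative to the median of each array, so a value of 1 is the level of the median probe. Values of different genes come from different probes and are not compared as levels. Log2 changes are simulated microgravity minus static, tested with limma over all probes with a threshold of 0.05 on the adjusted p. All 66 genes were measured and tested on all 6 arrays, and 0 of their values lay at the floor of 0.1 used for dim probes. In these bulk samples, fewer cells of a type and less RNA per cell cannot be told apart. Each array gave 10337 to 10432 values, and log2 values of all probes correlated between arrays at 0.961 to 0.988. Static 2 and microgravity 2 stood apart, with 9.16% and 6.44% of values at the floor against 17.1% to 19.8% on the others. Of 11 osteoblast lineage markers, 7 were measured, of which Alpl and Pth1r fell past the threshold with all arrays but not with any 1 array left out. The summed level of the 7 was 307 to 440.2 in static samples and 201 to 254 in simulated microgravity. The largest part of it came from Sparc, at 201 ± 39.3 and 137 ± 19.7. Col1a1 and Col1a2 were bright in both groups, the bone sialoprotein gene Ibsp was dim at 0.230 ± 0.0673 in static samples (SD, n = 3), and Runx2, Sp7, Bglap and Spp1 were not analysed here. Summed levels of skeletal muscle markers (5 measured) were 0.751 to 0.975 over both groups, those of chondrocyte markers (4 measured) 1.31 to 2.77 and those of endothelial and epithelial markers (6 measured) 0.562 to 1.00. Macrophage and blood markers (3 measured) summed to 10.8 to 15.3 in static samples and 7.47 to 14.1 in simulated microgravity, nearly all of it from Cd14, while Ptprc, which marks blood cells, lay between 0.0108 and 0.152 on the 6 arrays. Adipocyte markers (5 measured) summed to 42.7 to 50.5 in static samples and 35.8 to 41.4 in simulated microgravity, mostly through Fabp4 and Lpl, while Adipoq had 0.110 ± 0.0409 in static samples. Of the lists other than that of the osteoblast lineage, 0 genes passed the threshold. The part of these lists in the results was not tested.

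The promoters of 58 of the 66 genes were found in the RefSeq promoter table (GRCm38.p6), which gives 250 bases before and 50 bases after each start site. The stretches below run from 150 bases before the start site to 30 bases after it, in the direction of the gene. They are shown because Timm10, Tomm70a, Timm9 and Tomm40 were the import genes with the smallest p among those with higher values, Timm17b was the one with the smallest p among those with lower values, and the Mrps11 stretch is shared with another mitochondrial ribosomal gene. Capitals mark whole matches to the motifs searched, on either strand. The motifs were CCGGAAG (an ETS and GABP motif), the NRF1 motif, AAGATGGC (YY1), CACGTG (the E-box bound by MYC and MAX) and GGGCGG (SP1). The NRF1 motif was searched with a base near its middle left free, so its matches need not be palindromes.

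Timm10 (chr2:84826871-84827050, + strand): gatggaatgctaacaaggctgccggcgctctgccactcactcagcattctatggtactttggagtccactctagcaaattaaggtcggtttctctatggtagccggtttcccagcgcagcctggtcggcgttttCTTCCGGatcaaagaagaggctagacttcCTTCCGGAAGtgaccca
Tomm70a (chr16:57121564-57121743, + strand): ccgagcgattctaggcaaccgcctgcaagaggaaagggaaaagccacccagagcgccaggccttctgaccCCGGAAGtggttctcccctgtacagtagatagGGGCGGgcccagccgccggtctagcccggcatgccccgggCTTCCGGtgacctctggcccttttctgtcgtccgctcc
Timm9 (chr12:71136646-71136825, - strand): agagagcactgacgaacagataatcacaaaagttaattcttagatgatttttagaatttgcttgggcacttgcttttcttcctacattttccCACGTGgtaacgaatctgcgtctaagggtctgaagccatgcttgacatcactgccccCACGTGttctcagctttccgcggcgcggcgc
Tomm40 (chr7:19715400-19715579, - strand): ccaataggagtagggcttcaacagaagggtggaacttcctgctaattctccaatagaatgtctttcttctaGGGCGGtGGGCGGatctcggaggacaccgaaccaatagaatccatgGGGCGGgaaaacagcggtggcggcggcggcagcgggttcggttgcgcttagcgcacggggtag
Timm17b (chrX:7899186-7899365, + strand): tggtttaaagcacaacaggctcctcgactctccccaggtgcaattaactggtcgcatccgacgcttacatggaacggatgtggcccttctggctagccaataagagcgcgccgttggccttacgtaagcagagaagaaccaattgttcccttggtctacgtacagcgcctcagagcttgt
Mrps11 (chr7:78782981-78783160, + strand): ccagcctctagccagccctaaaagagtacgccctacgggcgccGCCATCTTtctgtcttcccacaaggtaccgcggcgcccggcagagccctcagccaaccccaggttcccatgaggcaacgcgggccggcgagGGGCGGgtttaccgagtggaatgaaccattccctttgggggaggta

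The stretch of Timm10 held 3 matches to CCGGAAG, of which the last 2 overlap on opposite strands, and that of Tomm70a held 2 of them and 1 GGGCGG. Timm9 had 2 E-boxes, Mrps11 had 1 AAGATGGC and 1 GGGCGG, Tomm40 had 3 matches to GGGCGG, and Timm17b had 0 matches to the 5 motifs in these letters. Over the whole windows CCGGAAG stood in 34.5% of the 58 genes, against 15.4% of 7051 array genes and 9.93% of all 27025 genes of the table. AAGATGGC stood in 15.5% of them against 4.08% of array genes and 3.19% of all, and the NRF1 motif in 15.5% against 9.39% and 5.19%. CACGTG (13.8% against 11.5% and 8.09%) and GGGCGG (55.2% against 61.2% and 38.2%) were closer to the array genes. The median GC content of the windows was 58.7% for these genes and 59% for array genes. The median log2 change was 0.14 with CCGGAAG and 0.20 without it, 0.19 with the NRF1 motif and 0.22 without it, 0.22 with AAGATGGC and 0.19 without it, 0.24 with GGGCGG (32 genes) and 0.14 without it, and 0.34 with CACGTG (8 genes) and 0.17 without it. These are descriptions of letters, with no test, and say nothing of factor binding.

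Head-to-head starts were also common. In 19 of the 58 genes (32.8%) another gene started on the opposite strand within 1000 bases upstream, with up to 100 bases of overlap allowed, against 17.2% of array genes. Mrps11 and Mrpl46 form such a pair with starts 42 bases apart. Mrpl49 lies opposite Fau, which encodes a cytosolic ribosomal protein, and Mrpl18 opposite Tcp1, a chaperonin subunit gene. Of the 11 partner genes that were measured, 8 had higher and 3 lower values in simulated microgravity, and 0 passed the threshold. Their median log2 change was 0.11, and 56.5% of all genes had a change above 0. The 11 include Mrps11 and Mrpl46, each counted as the partner of the other. Mrps11 and Mrpl46 themselves had log2 changes of 0.12 (SE 0.22) and 0.02 (SE 0.29).

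The groups were compared to see which of these genes differ in RNA level between cells at rest and cells under simulated microgravity. Most of the 66 genes had slightly higher values in simulated microgravity, none passed the threshold, and much of the shift lay on 1 array. Of the 66, 54 had a log2 change above 0 and 12 below 0 (81.8% above, against 56.5% of the 8586 genes tested), and the median log2 change was 0.20, against 0.05 over all genes. By limma 0 genes passed (lowest adjusted p = 0.105), against 0.28% of all genes, or 0.0815% higher and 0.198% lower. At an unadjusted p under 0.05 there were 12 with higher values (18.2%) and 0 with lower values, against 5.79% and 5.7% of all genes, or 11.5% in both directions. The values of the groups did not overlap for 14 genes, all 14 higher in simulated microgravity (21.2%), against 8.51% of all genes higher and 8.07% lower. Without microgravity 3 the median was 0.06 against 0.02 over all genes, 42 of 66 were above 0, and 5 had an unadjusted p under 0.05 (7.58%, against 10.2% of all genes). Without static 1 that last count was also 5 (7.58%, against 7.97%), with a median of 0.25. Changes were small, with quartiles of 0.03 and 0.36 on the log2 scale and a range from -0.36 (Timm17b) to 0.98 (Mrpl38).

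**Figure D1:**
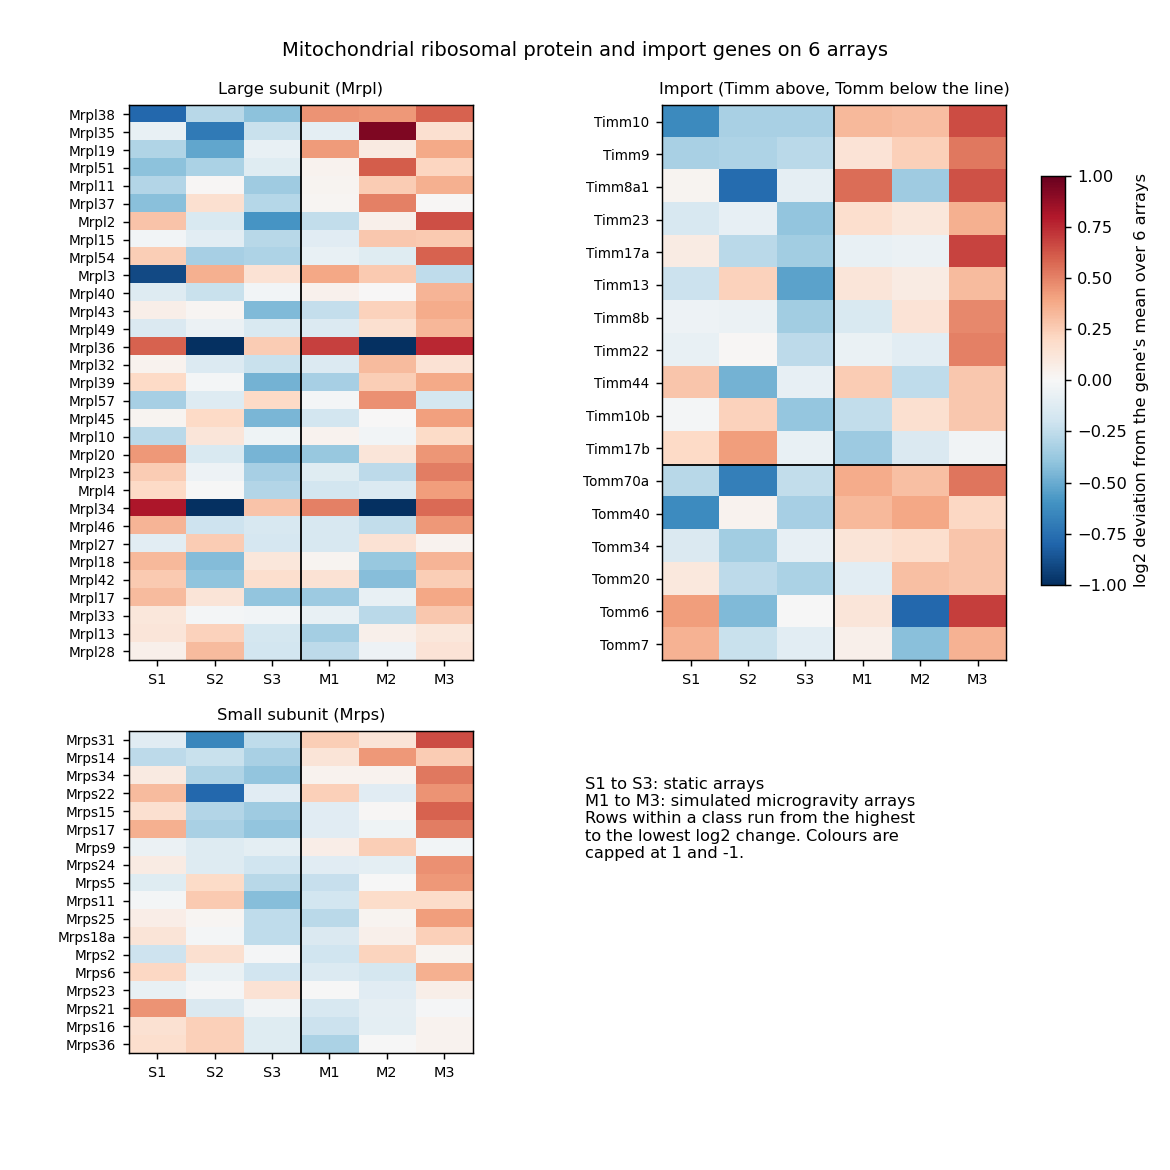
Log2 intensity of each of the 66 genes on each array as the deviation from the gene's mean over the 6 arrays (colour, red higher and blue lower, capped at 1 and -1), with static arrays left of the line and simulated microgravity arrays right of it. Microgravity 3 (M3) is the highest array for 41 of the 66 genes, and Mrpl34 and Mrpl36 are low on both static 2 and microgravity 2.

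Of the 6 genes with a Tomm symbol, 3 had groups that did not overlap, all 3 higher in simulated microgravity, against 8.51% of all genes. They were Tomm70a and Tomm40 of the translocase itself, and Tomm34. Tomm70a encodes a receptor that takes hydrophobic precursors from cytosolic chaperones. It had 21.8, 16.4 and 22.2 on static 1, 2 and 3 and 34.0, 32.3 and 38.1 on microgravity 1, 2 and 3. All 3 microgravity values lay above all static values, with a 1.74-fold ratio (log2 change 0.80, SE 0.17, limma adjusted p = 0.133). Tomm70a was the 1 gene of the 66 with another probe, and that probe gave 5.97, 6.12 and 7.30 in static samples and 12.0, 11.5 and 10.4 in simulated microgravity. Its log2 change was 0.81 (SE 0.14, limma adjusted p = 0.0915), so both probes gave a like change, both without overlap, and neither passed.

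Tomm40 encodes the pore of the outer membrane. It had 1.49, 2.36 and 1.83 in static samples and 2.88, 3.01 and 2.66 in simulated microgravity, again without overlap (log2 change 0.61, SE 0.21, limma adjusted p = 0.333). Tomm34, which despite its name is mostly a cytosolic co-chaperone of heat shock proteins, had 3.07, 2.67 and 3.20 against 3.71, 3.82 and 4.11 (log2 change 0.38, SE 0.15, limma adjusted p = 0.400). The presequence receptor gene Tomm20 had 54.4 ± 9.01 in static samples and 67.6 ± 10.2 in simulated microgravity, with microgravity 1 (55.8) below static 1 (64.7). The small subunit genes Tomm6 and Tomm7, whose proteins stabilise the pore complex, had log2 changes of 0.02 (95% interval -0.93 to 0.96) and -0.01 (-0.60 to 0.57). Tomm6 was low on both arrays numbered 2, with 6.43 on static 2 and 5.06 on microgravity 2 against 8.71 to 14.1 on the others. The sign of its small change turned under quantile and cyclic loess normalization. The median log2 change of the 6 Tomm genes, Tomm34 included, was 0.35, and it was 0.30 without microgravity 3.

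The small TIM chaperones of the intermembrane space held the gene with the smallest p of the 66. Timm10 had 10.3, 12.8 and 12.8 on static 1, 2 and 3 and 20.0, 19.8 and 25.1 on microgravity 1, 2 and 3. The lowest microgravity value was above the highest static value by more than the range of the static group, and the ratio was 1.81 (log2 change 0.86, SE 0.16, limma adjusted p = 0.105). Its partner Timm9, with which it forms a ring-shaped chaperone for carrier precursors, had 3.12, 3.16 and 3.23 against 4.29, 4.62 and 5.64. These groups did not overlap either, and the static values were nearly equal (log2 change 0.60, SE 0.15, limma adjusted p = 0.191). Without microgravity 3 the log2 changes were 0.74 for Timm10 and 0.49 for Timm9.

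The other small TIM genes showed more scatter. Timm8a1, whose human counterpart is the deafness-dystonia gene, had 13.0, 7.52 and 12.0 against 18.9, 10.0 and 19.9. Both arrays numbered 2 were the low ones of their group, and the groups overlapped (log2 change 0.56, SE 0.33, limma adjusted p = 0.691). Timm13, its partner in another ring chaperone, had 13.9 ± 3.78 and 17.4 ± 1.50, and Timm8b had 21.4 ± 2.41 and 26.9 ± 5.89, each with overlap. The log2 change of Timm10 exceeded that of Timm13 by 0.51 and that of Timm9 exceeded that of Timm8b by 0.29, both with an exact 2-sided permutation p of 0.2 over the 6 samples, where 0.1 is the smallest p that 3 against 3 allows. A design of this size could not have passed 0.05, so these p-values do not bear on whether the changes differ.

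**Figure D2:**
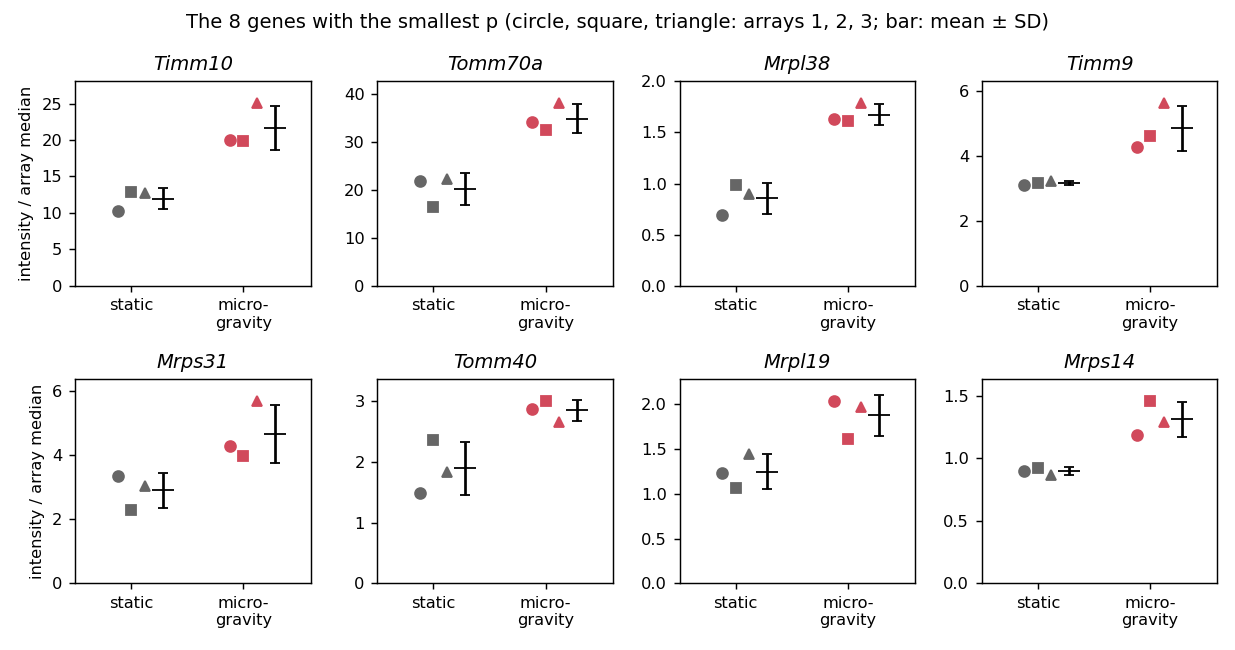
Intensity over the array median (vertical axis, from 0) of the 8 genes with the smallest p, in static (grey) and simulated microgravity (red) samples, where circle, square and triangle are arrays 1, 2 and 3 and the black bar is the mean ± SD of 3 arrays. In all 8 genes the lowest microgravity value lies above the highest static value, and microgravity 3 is the highest point for Timm10, Timm9, Tomm70a, Mrpl38 and Mrps31.

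The TIM23 complex was mixed. Timm23, its channel gene, had 12.8, 13.5 and 10.9 in static samples and 16.1, 15.4 and 18.3 in simulated microgravity, without overlap (log2 change 0.42, SE 0.15, limma adjusted p = 0.355). Timm17a and Timm17b encode alternative partners of that channel and had changes of equal size and opposite sign. Timm17a had 18.2, 14.3 and 13.5 against 16.3, 16.5 and 27.4 (log2 change 0.36, SE 0.24), and microgravity 1 and 2 lay within the static range. Timm17b had 8.60, 10.0 and 7.10 against 5.84, 6.79 and 7.32 (log2 change -0.36, SE 0.18, limma adjusted p = 0.570), the lowest log2 change of the 66 genes. The log2 difference between the probes of Timm17a and Timm17b was 1.08, 0.52 and 0.93 on the static arrays and 1.48, 1.28 and 1.91 on the microgravity arrays. It was thus higher on every microgravity array, by 0.72 on average, with an exact 2-sided permutation p of 0.1, the smallest p this design allows. This pair was singled out after its values were seen. Timm44, which tethers the import motor, had 5.44 ± 1.40 and 6.13 ± 1.19, with both arrays numbered 2 low.

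Timm22 and Timm10b, genes of the TIM22 complex, which inserts carriers and also binds the Timm9 and Timm10 proteins described above, had overlapping groups. Timm22, its core, had 2.59, 2.75 and 2.27 against 2.61, 2.53 and 3.88 (log2 change 0.22, 95% interval -0.28 to 0.72), with microgravity 3 alone above the static range. Timm10b, the small TIM protein bound to that complex, had 8.20 ± 1.73 and 8.86 ± 1.58. Over the 11 TIM genes the median log2 change was 0.35, with 10 above 0, and it was 0.15 without microgravity 3.

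In the large ribosomal subunit, Mrpl38 had the largest log2 change of the 66 genes. This gene of a mitochondria-specific protein had 0.691, 0.984 and 0.895 on static 1, 2 and 3 and 1.63, 1.61 and 1.79 on microgravity 1, 2 and 3. All static values were below the array median and all microgravity values above it (1.97-fold, log2 change 0.98, SE 0.21, limma adjusted p = 0.133). Mrpl19, with a bacterial counterpart at the interface of the subunits, had 1.23, 1.06 and 1.45 against 2.04, 1.61 and 1.97 (log2 change 0.59, SE 0.20, limma adjusted p = 0.342). Mrpl51 had 0.863, 0.921 and 1.05 against 1.18, 1.75 and 1.33, and Mrpl11, a protein of the stalk base where translation factors bind, 2.27, 2.80 and 2.17 against 2.83, 3.31 and 3.55. Neither pair of groups overlapped, with limma adjusted p = 0.421 and 0.455. Mrpl40 was the remaining large-subunit gene without overlap, at 11.4 ± 0.790 and 13.6 ± 1.78 (log2 change 0.25, SE 0.15). The 5 of 31 genes without overlap (16.1%) were all higher, against 8.51% of all genes higher and 8.07% lower. At an unadjusted p under 0.05 the subunit had 4 genes (12.9%, against 11.5% of all genes).

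The other 26 large-subunit genes overlapped between groups. The largest log2 change among them was that of Mrpl35, at 0.67 (SE 0.34), and it rested on 1 value of 1.44 on microgravity 2, against 0.461 to 0.838 on the other arrays. Mrpl15, Mrpl37, Mrpl49 and Mrpl32 had log2 changes of 0.22 to 0.36. For Mrpl2, Mrpl54, Mrpl43 and Mrpl39 these were 0.19 to 0.30, with microgravity 3 highest for each. Mrpl2, whose bacterial counterpart lies near the peptidyl transferase centre, had 24.9, 18.4 and 13.6 on the static arrays against 17.2, 21.1 and 32.0, with wide overlap. Mrpl10, Mrpl3, Mrpl57, Mrpl45 and Mrpl20 lay between 0.12 and 0.26, and Mrpl3 was dim on every array, at 0.177 to 0.431. Mrpl23, Mrpl4, Mrpl27, Mrpl46, Mrpl18, Mrpl42, Mrpl17 and Mrpl33 lay between -0.05 and 0.09. Mrpl28 and Mrpl13 had the lowest log2 changes of the subunit, both -0.12, with 95% intervals of -0.56 to 0.31 and -0.56 to 0.32. The median over the 31 genes was 0.19, with 25 above 0, and it was 0.05 without microgravity 3.

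Mrpl34 and Mrpl36, both small proteins with bacterial counterparts, varied between arrays more than they did between groups. Mrpl34 had 3.80, 0.982 and 2.64 in static samples and 3.07, 1.07 and 3.20 in simulated microgravity. Mrpl36 had 0.933, 0.277 and 0.739 against 1.00, 0.288 and 1.05. In both genes static 2 and microgravity 2 were lower than the other arrays by far more than the group means differed, and the log2 changes of 0.03 and 0.22 had SEs of 0.61 and 0.65. The lowest value of each group lay on its array numbered 2 for 15 of the 66 genes (22.7%), against 16.1% of 8415 genes with all 6 values. Besides these genes the 15 included Tomm6, Tomm7, Tomm70a, Timm8a1, Timm44, Mrpl18, Mrpl42 and Mrps22. Leaving out both arrays numbered 2 gave a log2 change of -0.01 for Mrpl34 and a median of 0.23 for the 66 genes.

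In the small subunit, Mrps31 and Mrps14 were the genes with an unadjusted p under 0.05. These were 2 of 18 genes (11.1%), near the share of 11.5% over all genes. Mrps31, a mitochondria-specific protein, had 3.35, 2.30 and 3.03 against 4.29, 3.97 and 5.69 (log2 change 0.68, SE 0.21, limma adjusted p = 0.295). Mrps14, with a bacterial counterpart in the head of the subunit, had 0.901, 0.926 and 0.864 against 1.19, 1.46 and 1.29 (log2 change 0.54, SE 0.19, limma adjusted p = 0.347). Mrps9 also had groups without overlap, at 3.32, 3.16 and 3.22 against 3.60, 4.09 and 3.38, a small difference of 0.19 (SE 0.14). These 3 of the 18 genes without overlap (16.7%) were all higher, against 8.51% of all genes higher and 8.07% lower. The static values of Mrps14 and Mrps9 lay close together, and of these 3 genes only Mrps31 had its highest value on microgravity 3.

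The other 15 small-subunit genes overlapped between groups. Mrps34, Mrps22, Mrps15 and Mrps17 had log2 changes of 0.24 to 0.40, each with its highest value on microgravity 3. Mrps24, Mrps5, Mrps11, Mrps25 and Mrps18a lay between 0.10 and 0.16, and Mrps18a is a protein of the large subunit despite its symbol. Mrps2, Mrps6 and Mrps23 lay between -0.04 and 0.04. The 3 lowest were Mrps36 at -0.19 (95% interval -0.58 to 0.20), Mrps16 at -0.18 (-0.55 to 0.19) and Mrps21 at -0.18 (-0.64 to 0.28). Mrps36, with 10.0, 10.5 and 8.22 against 7.17, 8.93 and 9.14, is now regarded as a component of the alpha-ketoglutarate dehydrogenase complex and not of the ribosome. The median over the 18 genes was 0.13, with 14 above 0. It was 0.02 without microgravity 3, 0.04 without static 3 and 0.25 without microgravity 1.

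**Figure D3:**
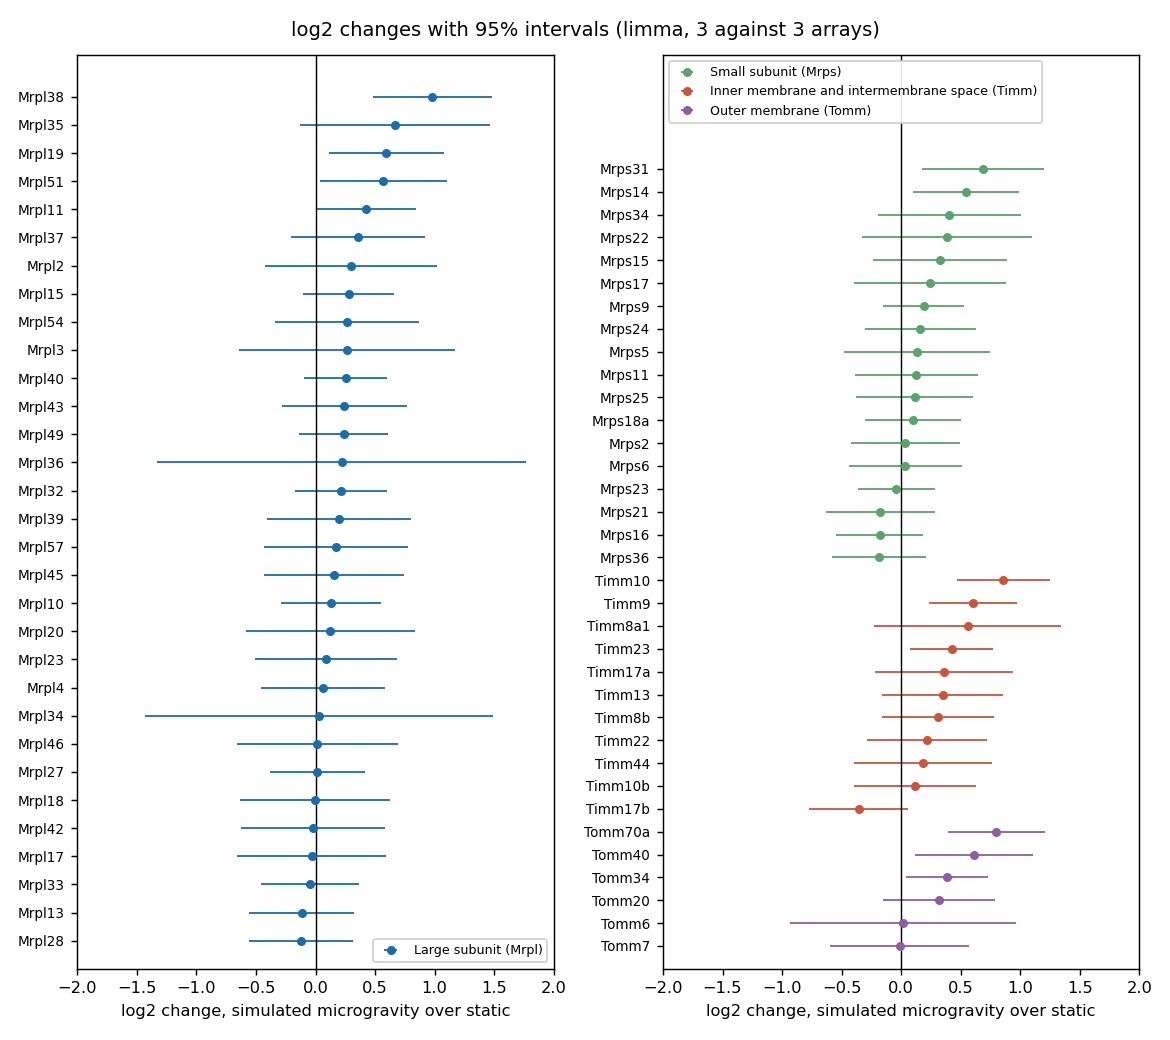
Log2 change, simulated microgravity over static (horizontal axis), of each of the 66 genes with its 95% interval from limma (3 arrays per group), with large-subunit genes on the left and small-subunit, TIM and TOM genes on the right. Intervals of 12 genes lie wholly above 0, none (0) lies wholly below it, and Mrpl36 and Mrpl34 have the widest.

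Arrays within each group also differed from each other in these genes. Of the 66 genes, 41 had their highest value of all 6 arrays on microgravity 3 (62.1%, against 21.6% of all genes), and 29 had their lowest on static 3 (43.9%, against 14.6%). The median log2 deviation of the 49 ribosomal genes from their mean over the 6 arrays was 0.06, -0.11 and -0.20 on static 1, 2 and 3 and -0.11, 0.02 and 0.34 on microgravity 1, 2 and 3. Microgravity 1 was thus below static 1 and level with static 2. For the 17 import genes it was -0.05, -0.26 and -0.27 on the static arrays and 0.12, 0.11 and 0.36 on the microgravity arrays. These medians did not overlap between groups, and neither did those of the translation and biogenesis lists described below. Over all genes the medians were -0.03, 0.02 and -0.06 on the static arrays and -0.07, 0.08 and 0.01 on the microgravity arrays. The median log2 change of the import genes was 0.35. Of these 17 genes, 15 had a change above 0 (88.2%) and 6 an unadjusted p under 0.05 (35.3%). For the 49 ribosomal genes the median was 0.16, with 39 above 0 (79.6%) and 6 at an unadjusted p under 0.05 (12.2%). Over all genes the shares were 56.5% above 0 and 11.5% at an unadjusted p under 0.05 in both directions. The classes follow the symbols, so Tomm34 is counted with the import genes, among the 6 at an unadjusted p under 0.05. Mrps36 is likewise counted with the ribosomal genes. The difference between the import and ribosomal classes was not tested.

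**Figure D4:**
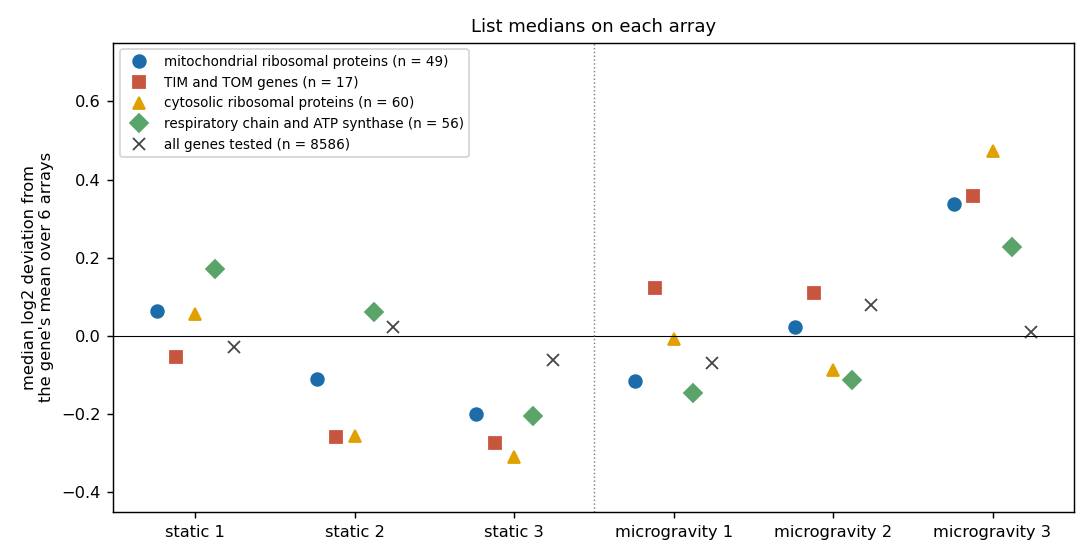
Median over each gene list of the log2 deviation from the gene's mean over the 6 arrays (vertical axis), for each array (horizontal axis), with 1 marker per list. Microgravity 3 has the highest median for both classes of mitochondrial genes described here, for cytosolic ribosomal proteins and for respiratory chain and ATP synthase genes. The import genes (red squares) have all microgravity medians above all static ones. The same holds for lists that are not drawn, those of mitochondrial translation factors and of mitochondrial DNA and biogenesis genes.

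Cytosolic ribosomal proteins followed a like order of arrays. Their 60 measured genes had medians of 0.06, -0.26 and -0.31 on the static arrays and -0.01, -0.09 and 0.47 on the microgravity arrays. Of them 58 had a log2 change above 0 (96.7%, against 56.5% of all genes). Their median was 0.28, and it was 0.11 without microgravity 3. The groups did not overlap for 9 of the 60, all higher (15%), against 8.51% of all genes higher and 8.07% lower, genes with missing values included. At an unadjusted p under 0.05 there were 2 (3.33%, against 11.5% of all genes). Those were Rpl28, at 32.8 ± 3.37 in static samples and 47.2 ± 7.05 in simulated microgravity, and Rpl22l1, at 0.411 ± 0.0250 and 0.709 ± 0.00847 (SD, n = 2 arrays per group, with no value on static 2 and microgravity 2), and both missed the threshold (limma adjusted p = 0.322 and 0.421). The 2 with lower values were Rpl37a (log2 change -0.27, SE 0.31) and Rps28 (-0.12, SE 0.27). Nuclear-encoded respiratory chain and ATP synthase genes (56 measured, assembly factors with such symbols included) were also highest on microgravity 3, at 0.23, but had 0.17 on static 1. Their log2 changes were above 0 in 28 genes and below 0 in 28, with a median of 0.01 that turned to -0.05 under quantile and -0.06 under cyclic loess normalization, and ranged from -0.09 without microgravity 3 to 0.09 without static 1. Only Cox6a2 of that list passed the threshold with all arrays, with higher values in simulated microgravity. This gene encodes a cytochrome oxidase subunit best known from heart and skeletal muscle. Its log2 change was 1.42 (SE 0.16, limma adjusted p = 0.0394), and it did not pass with any 1 array left out. The assembly factor gene Ndufaf3 had 1.63 ± 0.141 in static samples and 0.996 ± 0.130 in simulated microgravity (limma adjusted p = 0.217). The differences between these lists and the mitochondrial ribosome and import genes were not tested.

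A list drawn up for import outside the symbol rule also had mostly higher values. It was broad, and not every gene on it, such as Ghitm, encodes a part of the import machinery. Of 24 listed genes 14 were tested, and 13 had a log2 change above 0 (92.9%, against 56.5% of all genes). At an unadjusted p under 0.05 there were 5 (35.7%, against 11.5% of all genes), and 0 passed the threshold. The groups did not overlap for 6, all higher (42.9%), against 8.51% of all genes higher and 8.07% lower, genes with missing values included. The median of the 14 was 0.40, but 0.05 without microgravity 3, 0.24 without static 3 and 0.22 over the brighter 50% of probes. Hspd1, the chaperonin that folds imported proteins in the matrix, had 18.2 ± 4.37 in static samples and 32.8 ± 7.41 in simulated microgravity (log2 change 0.85, SE 0.26, limma adjusted p = 0.276). Ghitm, an inner membrane protein, had 33.3 ± 2.17 and 53.4 ± 13.3 (limma adjusted p = 0.291). The 1 gene with a lower value was Romo1, at 8.73 ± 0.833 and 8.08 ± 0.631.

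Factors of mitochondrial translation and ribosome assembly (11 tested) had 10 log2 changes above 0 (90.9%, against 56.5% of all genes). Of them 3 had an unadjusted p under 0.05 (27.3%, against 11.5% of all genes), and 0 passed the threshold. The groups did not overlap for 4, all higher (36.4%), against 8.51% of all genes higher and 8.07% lower. The median of the 11 was 0.13, but it was 0.05 with quantile normalization, 0.23 with the floor at 0.05 of the median or with no floor, 0.20 with array weights, 0.20 without static 2, 0.24 without microgravity 2 and 0.22 without both. C1qbp, a matrix protein needed for mitochondrial translation, had 14.2 ± 2.68 and 23.1 ± 1.27 (log2 change 0.72, SE 0.17, limma adjusted p = 0.166). Mterf3, which is needed for assembly of the mitochondrial ribosome, had 11.5 ± 0.745 and 17.3 ± 2.68 (log2 change 0.59, SE 0.16, limma adjusted p = 0.220). Both had groups without overlap. The gene with the smallest p among those with lower values was the assembly factor gene Rbfa, at 3.99 ± 0.684 and 3.86 ± 0.291.

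The 3 measured ribosomal proteins with other symbols, Chchd1, Ptcd3 and Dap3, had log2 changes above 0 with a median of 0.12 and 0 at an unadjusted p under 0.05. That median ranged from 0.06 without microgravity 3 to 0.30 without microgravity 1, and was 0.21 without static 1, 0.22 without static 2 and 0.21 without microgravity 2. Chchd1 had 11.1 ± 1.28 and 13.7 ± 3.06. Mitochondrial aminoacyl-tRNA synthetases and amidotransferase subunits (6 tested) had a median of -0.03. Of the 6, 2 were above 0 (33.3%, against 56.5% of all genes) and 0 had an unadjusted p under 0.05. That median had no stable sign, from -0.08 without static 1 to 0.07 without static 2, and 0.15 without both arrays numbered 2. The amidotransferase gene Gatc had 0.622 ± 0.383 and 0.918 ± 0.483, and the histidyl-tRNA synthetase gene Hars2 had 3.28 ± 0.244 and 3.05 ± 0.231. Genes of mitochondrial DNA transcription, replication and biogenesis (13 tested) had a median of 0.17, with 10 above 0 (76.9%, against 56.5% of all genes). It was 0.30 without static 2, 0.27 without static 3, 0.29 without both arrays numbered 2 and 0.28 with array weights. Of these Tfb2m, a transcription factor of mitochondrial DNA, had 6.04 ± 0.723 and 8.51 ± 1.56 (limma adjusted p = 0.382). Myc, a growth regulator that also acts on mitochondrial biogenesis, had 13.4 ± 1.33 and 20.1 ± 2.27 (limma adjusted p = 0.191), and Polg2, the accessory subunit of the mitochondrial DNA polymerase, had 0.356 ± 0.0263 and 0.267 ± 0.0272 (limma adjusted p = 0.532). The coactivator gene Ppargc1a lay at or below 0.1 of the array median in the mean of both groups (0.0653 and 0.0465), so its change could not be read.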

How the data were processed

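The authors deposited linear intensities, 1 value per probe and array. The scanner, the array maker and the earlier steps were not stated. Medians of the arrays differed by at most 2.07%, and the values were therefore treated as already scaled, by an unknown step. Intensities were divided by the median of their array, values under 0.1 were set to 0.1, and log2 was taken. Of 10500 probes, 354 were left out, among them 290 at the floor on every array. The other 10146 were tested with limma 3.58.1 in R 4.3.3 (lmFit, eBayes with an intensity trend, 2-sided, Benjamini-Hochberg adjustment, threshold 0.05), a fit that was tested on simulated data. The platform annotation held by GEO gave 1 symbol for 8983 probes, several for 1 and none for 1516. A gene stood for its brightest probe by mean, and 8586 genes were tested. With 3 arrays per group, their number limits the precision.

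The members, the related lists and the tests were chosen with earlier results of these data known. The rule for named genes allowed every member. It gave values on all arrays to at most 8 members per direction by smallest p and to the 3 with the largest SD within a group, and named at most 2 genes per direction from a related list. Values on all arrays of other members, the Timm17a, Timm10 and Timm9 differences and the head-to-head genes were added after the values were seen. Alternatives covered normalization, the floor, filters, the variance model, array weights, the replicate block and left-out arrays.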

Additional observations from a re-analysis of the deposited data

How the results depend on the processing

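By limma 0 of the 66 genes passed the threshold in each of the 19 alternatives, and 5 to 13 had an unadjusted p under 0.05. Their lowest adjusted p was 0.0607 to 0.360. Those counts were 7.58% to 19.7% of the members tested, against 7.97% to 15.8% of all genes. The members' share was the lower one without static 1 (7.58%, against 7.97%) and without microgravity 3 (7.58%, against 10.2%). It was higher in the other alternatives, but only slightly with the floor at 0.5 of the median (15.4%, against 14.4%). The same held over the brighter 50% of probes (16.7%, against 15.8%). The median log2 change of the 66 genes stayed above 0 in all 19, and with 1 array left out it ranged from 0.06 to 0.29. With 1 array left out the TIM median ranged from 0.15 to 0.42. In the same fits 5 to 10 of the 66 genes had an unadjusted p under 0.05 (7.58% to 15.2%, against 7.97% to 10.4% of all genes). The 28 probes past the threshold over the whole table became 54 with quantile and 57 with cyclic loess normalization, 53 with the floor at 0.05 of the median, 59 with no floor, 58 with the dimmest 50% of probes left out, 115 with array weights and 1 with no filter on dim probes. They became 0 with static 2 and microgravity 2 left out together, 0 with any 1 array left out and 0 with the replicate block. The block left 8 of the 66 genes at an unadjusted p under 0.05 (12.1%, against 9.8% of all genes). Deviations of same-numbered samples from their group means correlated at -0.21, 0.46 and -0.18 for numbers 1, 2 and 3, so the numbers did not meet the rule used for pairing, which asks that every pair correlates. Static 2 and microgravity 2 did deviate together. Among samples of unlike number, static 1 and microgravity 3 correlated at 0.66 and static 3 and microgravity 1 at 0.38.

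Signs turned for genes near 0. Tomm6 went to -0.059 with quantile and -0.041 with cyclic loess normalization. Without both arrays numbered 2, Mrpl28 went to 0.0032, Mrpl33 to 0.055 and Mrpl34 to -0.013. With 1 array left out the log2 change ranged from -0.295 to 0.0042 for Mrps21, from -0.085 to 0.022 for Mrps23, from -0.233 to 0.023 for Mrpl13, from -0.244 to 0.0078 for Mrpl28, from -0.193 to 0.078 for Mrpl33, from -0.532 to 0.549 for Mrpl34, from -0.309 to 0.828 for Mrpl36 and from -0.326 to 0.412 for Tomm6. The causes were not tested.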
